A study of Mus musculus with 12 samples.

Results

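Thioredoxin, glutathione and related antioxidant genes were followed through the left ventricles of mice carrying ATF6-MER. The 10 genes were a named list: Txnrd1, Txn1, Gclc, Gclm, Hmox1, Prdx2, Prdx5, Gsta4, Cat and Srxn1. All array probe sets whose platform symbol was one of these names were taken, which gave 19 of the 45037 probe sets that are not controls and 9 of the 18193 genes with a probe set. Prdx5, a peroxiredoxin, had no probe set under its symbol and was not analysed here.

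The thioredoxin and glutathione systems hold protein thiols and peroxides in a reduced state at the expense of NADPH. Glutamate-cysteine ligase makes the rate-limiting step of glutathione synthesis, glutathione S-transferases attach glutathione to electrophiles, and peroxiredoxins and catalase remove hydrogen peroxide. Many of these genes are known targets of NRF2, a transcription factor that binds the antioxidant response element and is held back by KEAP1, and in the heart they limit oxidative injury.

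The study sought genes that ATF6 controls in the heart. ATF6 is released from the membrane of the endoplasmic reticulum (ER) when unfolded proteins build up there, and then acts in the nucleus. TG mice carried ATF6-MER, in which ATF6 is fused to a modified estrogen receptor domain that tamoxifen activates, and nontransgenic littermates (NTG) lacked it. Mice of each genotype received tamoxifen or vehicle, which made 4 groups of 3 male C57BL/6 mice about 30 weeks old, and each heart had its own Affymetrix mouse whole-genome array. The drug alone was thus given to NTG mice, and the transgene alone was carried by the TG vehicle group. Sources used here do not give the promoter of the transgene, the dose or the length of treatment.

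Levels are log2(intensity + 16) after quantile normalization, so a difference of 1 is a doubling, and the offset understates changes of dim genes. Differences are given as the first group minus the second, ± the standard error (SE) of limma's fit, with 3 arrays per group. An adjusted p is limma's p after Benjamini-Hochberg adjustment over 11165 tested genes, and a gene was called where it was under 0.05. Where a gene had several probe sets, the brightest on average stood for it. Levels of different probe sets are not comparable with each other. The median deposited intensity per array ran from 648 to 834, and 3 arrays per group limit the precision.

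The labels of 3 arrays need care, 1 because its data go against its label. The array labelled NTG tamoxifen 1 read 17.72 for Esr1, the estrogen receptor gene whose probe set also detects the fusion. The 6 TG arrays read 16.66 to 18.25 and the other NTG arrays at most 10.88, so this array stood with the TG arrays. TG vehicle 3 has vehicle in its title and tamoxifen in its treatment field, and the mouse of TG tamoxifen 1 was 40 weeks old per its label. Groups followed the titles. Hspa5, the ER chaperone BiP and a known ATF6 target, was higher in TG tamoxifen than in TG vehicle by 2.41 ± 0.52 (adjusted p = 0.00836). All 8 cardiomyocyte markers lay above the filter on dim probe sets, among them the myosin gene Myh6 at 18.41 to 18.69, while 0 of the 4 liver markers and 0 of the 4 adipocyte markers on the array did.

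RefSeq (GRCm38.p6) held promoters of 300 bases around the start for 7 of the 10 genes: Txnrd1 with 3 starts, and Txn1, Gclm, Prdx2, Prdx5, Cat and Srxn1 with 1 each. No entry matched Gclc, Hmox1 and Gsta4. The promoters were searched on both strands for the antioxidant response element core, TGACNNNGC, and the following are the matches upstream of a start, printed in the direction of the gene with the match in capitals. They are shown because both genes are known NRF2 targets that were higher in TG tamoxifen than in TG vehicle.
Txnrd1, second start, chr10:82859094-82859142, plus strand: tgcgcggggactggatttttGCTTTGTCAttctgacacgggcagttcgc
Gclm, chr3:122245403-122245451, plus strand: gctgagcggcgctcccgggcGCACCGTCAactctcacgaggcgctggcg
Both matches read on the strand opposite to the gene. The Txnrd1 match lay from position -92 to -84 and the Gclm match from -134 to -126, counted from the start site. Srxn1 held a further match downstream of its start, from 29 to 37. The core was in 12.4% of all 32851 promoters of this length, so a match alone is not rare. The ER stress response element, CCAAT and CCACG set 9 bases apart, found in 0.119% of all promoters, and the CEBP-ATF element TGATGNAAN, in 3.95%, had no match in the 9 member promoters searched.

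With tamoxifen, 8 of the 9 measured genes changed in the TG heart. In TG tamoxifen against TG vehicle, Txnrd1, Txn1, Gclc, Gclm, Hmox1 and Cat rose and Prdx2 and Gsta4 fell, by 1.75-fold to 5.74-fold, while Srxn1 did not pass the test. Of all tested genes, 24.8% were called in this comparison, 10.4% as higher and 14.4% as lower. For each of these 8 the groups were fully separated, 6 higher and 2 lower, beside 44.2% of all tested genes (19.8% higher and 24.4% lower). The median difference over the 9 genes was 1.25, beside -0.07 over all tested genes. Tamoxifen in NTG mice called 0 of the 9, beside 4.37% of all tested genes. The transgene under vehicle also called 0, beside 3.63%, so few calls would be met among any 9 genes there.

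**Figure D1:**
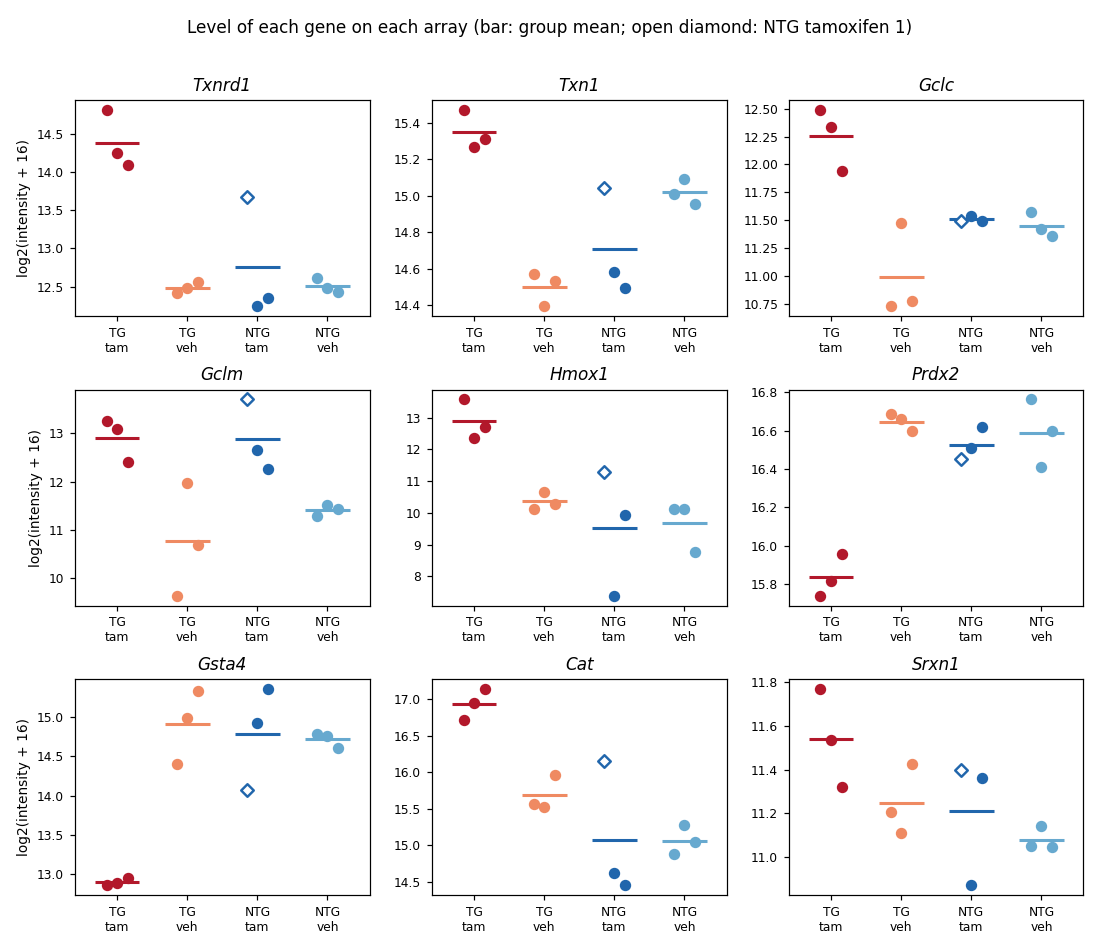
Level of each gene on each array, as log2(intensity + 16), by group, with bars at the group means and an open diamond for the array labelled NTG tamoxifen 1. For Txnrd1, Cat, Hmox1 and Gclm that diamond lies above all 6 vehicle arrays, and for Gsta4 it lies below them.

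Of the thioredoxin genes, the reductase had the larger rise. Txnrd1, the cytosolic enzyme that reduces thioredoxin with NADPH, read 14.81, 14.25 and 14.09 in TG tamoxifen and 12.42, 12.49 and 12.56 in TG vehicle. It read 13.67, 12.24 and 12.35 in NTG tamoxifen and 12.61, 12.48 and 12.43 in NTG vehicle. The TG tamoxifen arrays were the highest of the 12, the array labelled NTG tamoxifen 1 came next, and the other 8 lay close together. Txnrd1 rose by 1.89 ± 0.33 in TG tamoxifen against TG vehicle (3.72-fold, adjusted p = 0.00342, 95% interval 1.18 to 2.61). Its other probe sets, 1424486_a_at and 1424487_x_at, gave 1.47 ± 0.77 and 1.82 ± 0.83 in a fit over all probe sets, with no overlap between the groups but adjusted p of 0.329 and 0.264 there. The second of them, whose suffix marks possible matches to other transcripts, lay below the filter on dim probe sets.

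Txn1, the thioredoxin that Txnrd1 reduces, rose less. It read 15.47, 15.27 and 15.31 in TG tamoxifen, and 14.57, 14.39 and 14.53 in TG vehicle. In NTG tamoxifen it read 15.05, 14.58 and 14.49, and in NTG vehicle 15.01, 15.09 and 14.96. The TG tamoxifen arrays lay above all others, and the TG vehicle arrays lay below the NTG vehicle arrays without overlap. The rise in TG tamoxifen against TG vehicle was 0.85 ± 0.17 (1.80-fold, adjusted p = 0.00647). The gene's second probe set, 1456734_at, went the other way, at 10.82 to 11.06 in TG tamoxifen and 11.79, 11.81 and 11.33 in TG vehicle. It differed by -0.68 ± 0.30 (adjusted p = 0.254 over all probe sets), and with the mean of both probe sets the Txn1 difference was 0.08 (adjusted p = 0.763). The rise of Txn1 is thus that of 1 of 2 probe sets.

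Both subunits of glutamate-cysteine ligase rose. Gclc, the catalytic subunit, read 12.49, 12.34 and 11.94 in TG tamoxifen and 10.72, 11.48 and 10.77 in TG vehicle. The NTG arrays read 11.49, 11.54 and 11.49 with tamoxifen and 11.57, 11.42 and 11.36 with vehicle. The TG tamoxifen arrays were above all 9 others, and the NTG arrays of both treatments lay within a narrow band. Gclc rose by 1.26 ± 0.22 in TG tamoxifen against TG vehicle (2.40-fold, adjusted p = 0.00341). Its second probe set, 1455959_s_at, differed by 0.81 ± 0.28 without overlap (adjusted p = 0.153 over all probe sets).

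Gclm, the modifier subunit that lowers the enzyme's feedback inhibition by glutathione, spread more widely. It read 13.24, 13.08 and 12.41 in TG tamoxifen and 9.64, 11.97 and 10.68 in TG vehicle. With tamoxifen the NTG arrays read 13.70, 12.66 and 12.25, and with vehicle 11.29, 11.52 and 11.43. Tamoxifen arrays of both genotypes lay above all 6 vehicle arrays, and the highest level of all was on the array labelled NTG tamoxifen 1. Gclm rose by 2.15 ± 0.51 in TG tamoxifen against TG vehicle (4.43-fold, adjusted p = 0.0125). In NTG mice the difference was 1.46 ± 0.51 (adjusted p = 0.120), and 1.04 without the array labelled NTG tamoxifen 1 (adjusted p = 0.276). TG tamoxifen and NTG tamoxifen differed by 0.04 ± 0.51 (adjusted p = 0.960).

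The second Gclm probe set showed another pattern. Probe set 1439050_at read 11.91, 11.67 and 11.82 in TG tamoxifen, 10.35, 10.59 and 9.87 in TG vehicle, 10.61, 9.92 and 9.13 in NTG tamoxifen, and 10.32, 9.86 and 9.81 in NTG vehicle. On it the TG tamoxifen arrays stood above all others and NTG tamoxifen overlapped NTG vehicle. TG tamoxifen exceeded NTG tamoxifen by 1.91 (adjusted p = 0.00902 over all probe sets), where the first probe set gave 0.04. The probe sets of Gclm therefore disagree on whether tamoxifen in NTG mice goes with a higher level.

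Hmox1, the inducible heme oxygenase that breaks heme down to biliverdin, iron and carbon monoxide, had the largest difference of the 9 genes in this comparison. It read 13.58, 12.36 and 12.72 in TG tamoxifen and 10.14, 10.66 and 10.28 in TG vehicle. The NTG tamoxifen arrays spread from 7.39 to 11.28, with the array labelled NTG tamoxifen 1 at 11.28 and the last at 9.92, and the NTG vehicle arrays read 10.12, 10.12 and 8.76. Every TG tamoxifen array exceeded all 9 others. Hmox1 rose by 2.52 ± 0.77 in TG tamoxifen against TG vehicle (5.74-fold, adjusted p = 0.0340). Leaving out any 1 of the 6 TG arrays ended the call, with adjusted p from 0.0544 to 0.117 and differences from 2.18 to 2.79. Leaving out any 1 of the 6 NTG arrays kept it, with adjusted p from 0.00514 to 0.0452. The SE draws on all 4 groups, and the standard deviation was 1.97 in NTG tamoxifen and 0.27 to 0.78 in the others. In a fit of the TG groups alone the SE was 0.33 (adjusted p = 0.00404).

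Cat, the catalase that splits hydrogen peroxide in peroxisomes, read 16.71, 16.95 and 17.14 in TG tamoxifen and 15.56, 15.52 and 15.96 in TG vehicle. The NTG arrays read 16.15, 14.62 and 14.45 with tamoxifen and 14.87, 15.27 and 15.04 with vehicle. TG tamoxifen was highest, TG vehicle lay above NTG vehicle without overlap, and the array labelled NTG tamoxifen 1 lay between the TG groups. Cat rose by 1.25 ± 0.37 in TG tamoxifen against TG vehicle (2.38-fold, adjusted p = 0.0292), and its second probe set, 1416430_at, gave 1.36 ± 0.40 (adjusted p = 0.0925 over all probe sets). The call ended without TG tamoxifen 1, 2 or 3 or TG vehicle 1 or 2 (differences from 1.15 to 1.36, adjusted p from 0.0573 to 0.0863). It held without TG vehicle 3 (adjusted p = 0.0434) and without any 1 NTG array (0.000911 to 0.0413). The standard deviation of Cat was 0.94 in NTG tamoxifen and 0.20 to 0.24 in the other groups. In a fit of the TG groups alone the SE was 0.20 (adjusted p = 0.00747).

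Prdx2, an abundant cytosolic peroxiredoxin that thioredoxin recycles, fell. It read 15.74, 15.82 and 15.96 in TG tamoxifen and 16.69, 16.66 and 16.60 in TG vehicle. The NTG arrays read 16.45, 16.51 and 16.62 with tamoxifen and 16.76, 16.41 and 16.60 with vehicle. The TG tamoxifen arrays were below all 9 others, which overlapped each other. Prdx2 fell by 0.81 ± 0.15 on the log2 scale (1.75-fold, adjusted p = 0.00434). Its second probe set, 1430979_a_at, differed by -0.81 ± 0.29, also without overlap (adjusted p = 0.161 over all probe sets). So Txnrd1 rose, Txn1 rose on 1 of its 2 probe sets, and a peroxidase that draws on them fell.

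Gsta4, a glutathione S-transferase with high activity towards the lipid peroxidation product 4-hydroxynonenal, fell furthest. It read 12.85, 12.88 and 12.95 in TG tamoxifen and 14.40, 14.99 and 15.34 in TG vehicle. The NTG arrays read 14.07, 14.93 and 15.37 with tamoxifen and 14.78, 14.76 and 14.61 with vehicle. The TG tamoxifen arrays formed a tight group below every other array, and the lowest of the rest was the array labelled NTG tamoxifen 1. Gsta4 fell by 2.02 ± 0.31 on the log2 scale (4.05-fold, adjusted p = 0.00218).

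Srxn1, the sulfiredoxin that repairs overoxidised peroxiredoxins, was the only one of the 9 that did not pass. It read 11.77, 11.54 and 11.32 in TG tamoxifen and 11.21, 11.11 and 11.43 in TG vehicle, which overlapped. The NTG arrays read 11.40, 10.87 and 11.36 with tamoxifen and 11.05, 11.14 and 11.05 with vehicle. The difference in TG was 0.29 ± 0.19 (adjusted p = 0.277). Probe set 1451680_at separated the TG groups, at 11.98, 11.75 and 11.44 against 11.08, 11.01 and 10.24, a difference of 0.94 ± 0.46 (adjusted p = 0.300 over all probe sets). The remaining probe sets, 1419942_at and 1425351_at, gave 0.26 and 0.50.

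**Figure D2:**
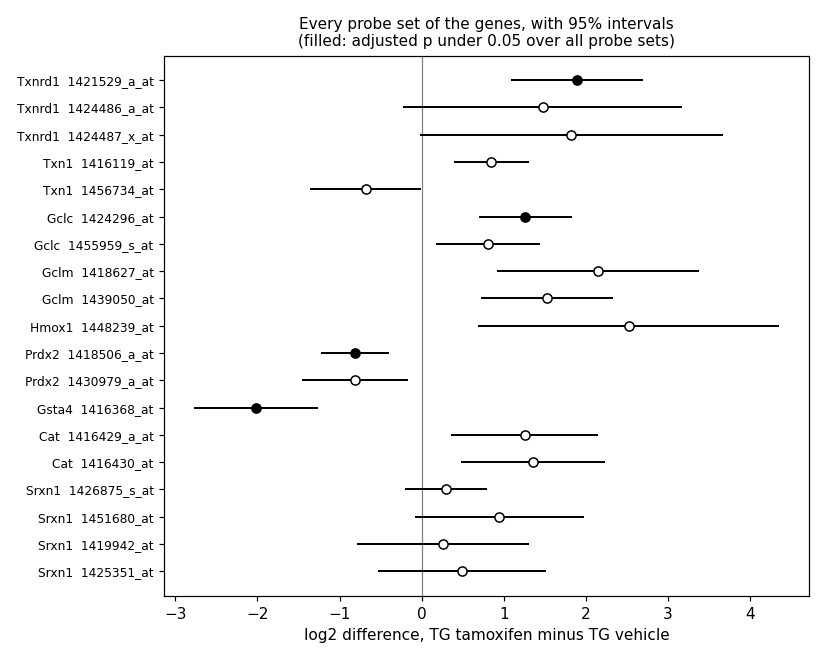
Difference between TG tamoxifen and TG vehicle for each of the 19 probe sets, as log2 values with 95% intervals from the fit over all probe sets, filled where adjusted p was under 0.05. Of the 19, 15 lay above 0, and the second Txn1 probe set is the one that opposes the other probe set of its gene.

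In the fit over all 45037 probe sets, with no filter, 4 of the 19 were called in TG tamoxifen against TG vehicle, beside 3.10% of all probe sets. They were the leading probe sets of Txnrd1 and Gclc, which rose, and of Prdx2 and Gsta4, which fell. The groups did not overlap for 16 of the 19, beside 27.4% of all probe sets, of which 12 were higher and 4 lower in TG tamoxifen. TG tamoxifen against NTG tamoxifen called 10 of the 19, 6 higher and 4 lower, beside 13.7% of all probe sets. Limma called 0 of the 19 with tamoxifen in NTG mice (0.0666% of all probe sets), between the vehicle groups (0.198%) and for the difference between the tamoxifen effects (0.0355%).

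The call of these 8 genes depended on whether a measure of RNA quality entered the fit and on how 1 label was read. The 3' to 5' ratio of the beta-actin control lay between 1.75 and 1.88 on TG tamoxifen arrays and between 1.32 and 1.68 on TG vehicle arrays. On NTG arrays it was 1.78 to 1.97 with tamoxifen and 2.12 to 2.43 with vehicle. In neither genotype did the ratio overlap between tamoxifen and vehicle, so a fit with it as a covariate cannot tell the ratio from treatment. With this ratio as a covariate, 0 of the 9 genes and 5 of 11165 tested genes were called in TG tamoxifen against TG vehicle (2511 at an unadjusted p under 0.05), with differences such as 1.94 for Txnrd1 (adjusted p = 0.0773), 3.17 for Gclm (0.0595) and -1.59 for Gsta4 (0.0860). With TG vehicle 3 counted as tamoxifen-treated, following its treatment field, 0 of the 9 and 0 of all genes were called (2280 at an unadjusted p under 0.05). Without TG vehicle 3 and TG tamoxifen 1 it was 4 of the 9 and 743 of all genes. For each of the 8 genes and for Hspa5, TG vehicle 3 lay outside the TG tamoxifen range. Txnrd1, for instance, read 12.56 on it, beside 14.09 to 14.81 in TG tamoxifen. The 8 genes were called with this array as vehicle, and which of its labels is right was not tested. The 3' to 5' ratio of the Gapdh control overlapped between the TG groups, at 0.745 to 0.778 with tamoxifen and 0.759 to 0.787 with vehicle.

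TG tamoxifen against NTG tamoxifen compares genotypes under the drug. Here 7 of the 9 genes were called, 5 higher and 2 lower, beside 39.5% of all tested genes, 19.0% as higher and 20.6% as lower. It shares the TG tamoxifen arrays with the comparison above, so the values are set side by side and do not support each other. Hmox1 was higher by 3.35 ± 0.77 (10.2-fold, adjusted p = 0.00536), Cat by 1.86 ± 0.37 (3.63-fold, 0.00246), Txnrd1 by 1.63 ± 0.33 (3.09-fold, 0.00272), Gclc by 0.75 ± 0.22 (0.0179) and Txn1 by 0.64 ± 0.17 (0.0119). Gsta4 was lower, at -1.90 ± 0.31 (adjusted p = 0.000893), and so was Prdx2, at -0.69 ± 0.15 (0.00418).

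The 7 called genes were also fully separated between these groups, as were 51.0% of all tested genes. Gclm and Srxn1, at 0.33 ± 0.19 (adjusted p = 0.188), were not called between the tamoxifen groups. The beta-actin ratios of these groups lie close together, and with the ratio as a covariate 7 of the 9 genes were again called. The fit without the covariate called 39.5% of all tested genes, so many calls are common in this comparison. Without the array labelled NTG tamoxifen 1, 7 of the 9 were also called, beside 42.9% of all tested genes. The differences were then 4.23 for Hmox1, 2.40 for Cat and 2.08 for Txnrd1. Without NTG tamoxifen 2 these were 2.28, 1.63 and 1.37, so the size of the Hmox1 difference rests on single NTG tamoxifen arrays. Gclc was not called without TG tamoxifen 1 or without TG tamoxifen 2. Median centring in place of quantile normalization called 5 as higher and 1 as lower. With the mean of its probe sets, Txn1 was at -0.20 (adjusted p = 0.400).

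Tamoxifen in NTG mice asks what the drug did without the fusion. Limma called 0 of the 9 genes, beside 4.37% of all tested genes, and Gclm was the 1 gene at an unadjusted p under 0.05. Gclm was also the 1 gene whose arrays were fully separated, as 30.2% of all tested genes were. Txnrd1 differed by 0.25, Txn1 by -0.31, Gclc by 0.06, Hmox1 by -0.14, Prdx2 by -0.06, Gsta4 by 0.07, Cat by 0.02 and Srxn1 by 0.13. The array labelled NTG tamoxifen 1 set several of these values. It lay above both other NTG tamoxifen arrays for 6 of the 9 genes and below both for 2. Without it the differences were -0.21 for Txnrd1, -0.52 for Cat (adjusted p = 0.174) and -1.01 for Hmox1 (adjusted p = 0.406).

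The transgene under vehicle was compared with NTG vehicle. Limma called 0 of the 9 genes, beside 3.63% of all tested genes, with Txn1 as the 1 gene at an unadjusted p under 0.05. Txn1 was at -0.52 ± 0.17 (adjusted p = 0.107), with every TG vehicle array below every NTG vehicle array, and it was called without the array labelled NTG tamoxifen 1 (adjusted p = 0.0438) and with array weights (0.0390). Cat at 0.62 ± 0.37 (adjusted p = 0.334) and Hmox1 at 0.69 ± 0.77 (0.628) did not overlap between the groups, the TG vehicle arrays being higher. Such separation was seen for 30.8% of all tested genes. The others were Gclm at -0.65, Gclc at -0.46, Gsta4 at 0.19, Srxn1 at 0.17, Prdx2 at 0.06 and Txnrd1 at -0.02. Some other probe sets of these genes differed from that without overlap. Txnrd1 was higher in TG vehicle on 1424486_a_at (10.25 to 10.80 against 9.83 to 10.18) and on 1424487_x_at (9.24 to 9.36 against 6.57 to 8.28). Gclc was higher on 1455959_s_at (11.38 to 11.42 against 11.04 to 11.18). Prdx2 was lower on 1430979_a_at (12.19 to 12.51 against 12.72 to 13.24). Over all probe sets 0 of the 19 were called.

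**Figure D3:**
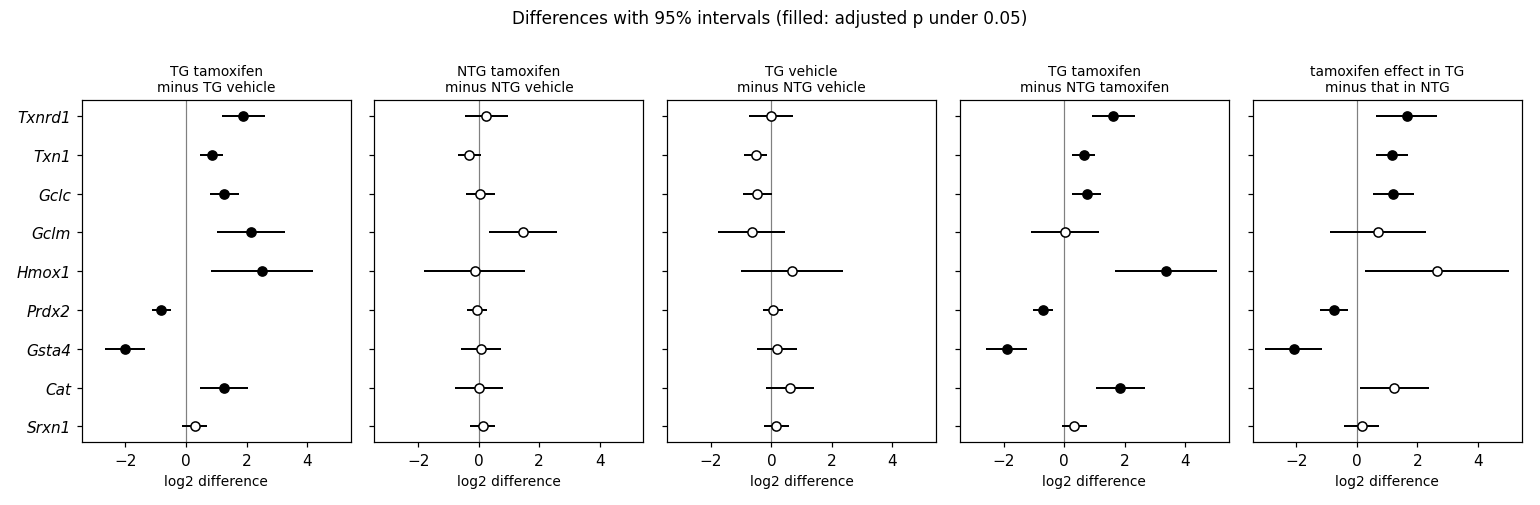
Log2 differences of the 9 genes in the 5 comparisons, with 95% intervals, filled where adjusted p was under 0.05. The panels with tamoxifen in NTG mice and with the vehicle groups hold no filled point, and that of TG tamoxifen against TG vehicle holds 8.

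The difference between the tamoxifen effects tests whether the drug acted differently in TG and NTG mice. It passed for 5 of the 9 genes, 3 higher and 2 lower, beside 14.3% of all tested genes, 7.51% as higher and 6.76% as lower. The effect in TG exceeded that in NTG by 1.65 ± 0.46 for Txnrd1 (adjusted p = 0.0375), 1.16 ± 0.24 for Txn1 (0.0148) and 1.21 ± 0.31 for Gclc (0.0270). It was the lower of the 2 effects for Gsta4, at -2.09 ± 0.43 (adjusted p = 0.0146), and for Prdx2, at -0.75 ± 0.21 (0.0384). Hmox1 at 2.66 ± 1.09 (0.115), Cat at 1.24 ± 0.52 (0.122), Gclm at 0.69 ± 0.72 (0.538) and Srxn1 at 0.16 (0.711) did not pass.

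Without the array labelled NTG tamoxifen 1, 7 of the 9 passed this test, beside 22.8% of all tested genes. Cat, at 1.78 ± 0.28 (adjusted p = 0.00255), and Hmox1, at 3.53 ± 0.90 (0.0195), were added, and Txnrd1 stood at 2.10 (0.00135). Without NTG tamoxifen 2 Hmox1 was at 1.59 (adjusted p = 0.146), and without NTG tamoxifen 3 Cat was at 0.93 (0.248). Of the 5 genes called with all arrays, Txn1 and Gsta4 passed with each of the 12 arrays left out, Gclc with 5, Prdx2 with 3 and Txnrd1 with 2 of them. With the mean of its probe sets the Txn1 value was 0.02 (adjusted p = 0.973), and Txnrd1, Gclc (0.83, adjusted p = 0.0732) and Prdx2 also lost the call. Leaving out other single arrays gave 2 to 5 genes, and 0 passed with the beta-actin ratio as a covariate, with no filter on dim genes or with TG vehicle 3 regrouped. Median centring, which moved the median of all genes from -0.07 to 0.18 in this comparison, called 3 as higher and 1 as lower.

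The wider pathway is described from lists of its genes, counted in TG tamoxifen against TG vehicle, where 24.8% of all tested genes were called, 10.4% as higher and 14.4% as lower. In each of the 8 lists 0 genes were called with the beta-actin ratio as a covariate or with TG vehicle 3 regrouped, where 5 and 0 of all tested genes were. Of the 18 thioredoxin and glutaredoxin genes, all tested, 2 rose, which were Txnrd1 and Txn1, and 3 fell, shares near those over all tested genes. Those that fell were Msrb2, a mitochondrial methionine sulfoxide reductase, by 1.94 ± 0.22 (adjusted p = 0.00137), Msra, its counterpart for the other stereoisomer, by 1.06 ± 0.19 (0.00362), and Glrx, the cytosolic glutaredoxin, by 1.05 ± 0.31 (0.0286). The median of the list was -0.04, beside -0.07 over all tested genes. Median centring gave 4 higher and 3 lower, and leaving out single arrays 2 to 5 higher and 2 to 4 lower. Msrb2 also fell by 1.16 ± 0.22 with tamoxifen in NTG mice (adjusted p = 0.0238).

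Among peroxiredoxins, sulfiredoxin and sestrins, 7 of 10 were tested, 0 rose and 3 fell, with a median of -0.50. Beside Prdx2 these were Prdx3, the mitochondrial peroxiredoxin, by 0.67 ± 0.17 (adjusted p = 0.0180), and Sesn1, a sestrin, by 1.49 ± 0.49 (0.0453). Under median centring 1 of this list was called as lower, and with single arrays left out 1 to 3 were. Prdx4, the peroxiredoxin of the ER, was at -0.50 and Sesn2 at 0.59, and neither passed.

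Of 15 tested genes of glutathione synthesis, recycling and the glutathione peroxidases, 5 rose and 1 fell, with a median of -0.08. Beside Gclc and Gclm, Chac1, a stress-induced enzyme that degrades glutathione, rose by 2.85 ± 0.58 (adjusted p = 0.00664), Gpx8, an ER-resident peroxidase, by 0.83 ± 0.19 (0.00989), and Gsr, which reduces oxidised glutathione, by 0.71 ± 0.22 (0.0381). Oplah, which returns 5-oxoproline to glutamate, fell by 2.69 ± 0.44 (adjusted p = 0.00290). It read 9.81, 9.05 and 8.95 in TG tamoxifen and at least 11.56 on all other arrays. Genes for synthesis and for breakdown of glutathione thus rose side by side.

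Most of the measured glutathione S-transferases fell. Of 23 listed, 17 were tested, 0 rose and 12 fell, with a median of -1.17 beside -0.07 over all tested genes. Gstk1, of peroxisomes and mitochondria, fell by 2.42 ± 0.31 (adjusted p = 0.00172), Gstp1 by 1.95 ± 0.29 (0.00207), Gstm2 by 1.71 ± 0.26 (0.00227) and Gstm4 by 1.38 ± 0.21 (0.00233). Gstp1 read 14.18, 14.26 and 14.21 in TG tamoxifen and 16.10, 16.24 and 16.15 in TG vehicle. It read 15.31, 16.49 and 16.66 in NTG tamoxifen and 16.23, 15.95 and 16.35 in NTG vehicle. As for Gsta4, the TG tamoxifen arrays stood lowest and the array labelled NTG tamoxifen 1 next.

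The difference between the tamoxifen effects passed for 10 of these 17 transferases, all lower, beside 14.3% of all tested genes (6.76% as lower). The median of the list was -1.26, beside -0.07 over all tested genes. They included Gsta4, Mgst3, a membrane-bound enzyme of this activity, at -1.71 (adjusted p = 0.0106), Gstm2 at -2.04 (0.0111) and Gstp1 at -1.93 (0.0158). Tamoxifen in NTG mice called 1 transferase, Gsta3, at -2.20 ± 0.55 (adjusted p = 0.0462). Without the array labelled NTG tamoxifen 1 that call was lost, and 0 transferases were called as lower and 1 as higher, beside 3.75% of all tested genes. Mu-class transferases are close in sequence, and Gstm1 was read by a probe set whose suffix marks possible matches to related transcripts, so their values may share signal. With single arrays left out, 11 to 14 transferases were called as lower in TG tamoxifen against TG vehicle.

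**Figure D4:**
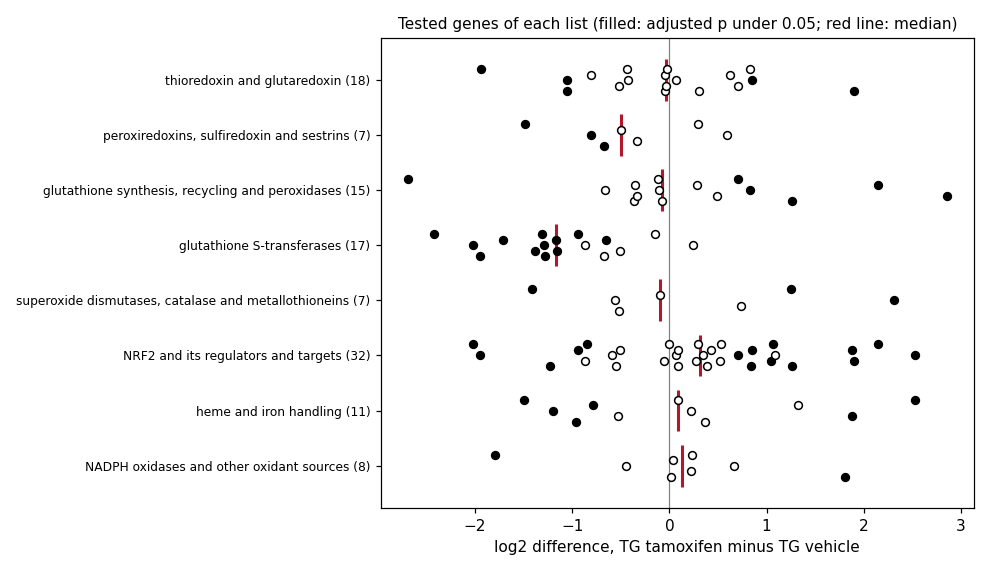
Log2 difference between TG tamoxifen and TG vehicle for the tested genes of each pathway list, filled where adjusted p was under 0.05, with a red line at each list's median. The glutathione S-transferases centre on -1.17 with 12 of 17 genes filled, and the NRF2 list holds filled genes on both sides of 0.

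Of superoxide dismutases, catalase and metallothioneins, 7 of 7 were tested and 2 rose, Cat and Mt2, a metal-binding metallothionein, by 2.31 ± 0.76 (adjusted p = 0.0465). Sod3, the extracellular superoxide dismutase, fell by 1.41 ± 0.38 (adjusted p = 0.0212), and with single arrays left out 0 to 2 of the list were higher and 0 to 2 lower. Sod1 was at -0.56 and Sod2 at -0.52 and neither passed. On the Mt2 probe set the TG vehicle arrays ranged from 11.49 to 14.92, a wide spread beside 15.74 to 16.10 in TG tamoxifen.

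The NRF2 list, which shares genes with the lists above, had 10 of 32 tested genes higher and 5 lower, with a median of 0.32. With single arrays left out 5 to 10 were higher and 4 to 6 lower. Higher were Txnrd1, Txn1, Gclc, Gclm, Hmox1, Gsr, Ugdh, the UDP-glucose dehydrogenase, at 1.06 ± 0.25 (adjusted p = 0.0121), Blvrb, Mafk and Taldo1. Lower were Gsta4, Gstp1, Gstm1 at -0.94 ± 0.22 (0.0118), Ephx1 and Cbr1, a carbonyl reductase, at -1.23 ± 0.28 (0.0112). The 5 lower of 32 are a share near the 14.4% called lower over all tested genes.

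Nfe2l2, which encodes NRF2, read 13.88 to 14.57 over the 12 arrays and differed by 0.08 ± 0.17 (adjusted p = 0.754). Keap1, its inhibitor, was at -0.51 ± 0.23 (adjusted p = 0.118) and was called in TG tamoxifen against NTG tamoxifen, at -0.72 (0.0247). Nqo1, a quinone reductase often used as an NRF2 readout, was at -0.59 ± 0.25 and did not pass. In TG vehicle against NTG vehicle 1 gene of this list was called, Mafg, a small MAF partner of NRF2, at -1.27 ± 0.25 (adjusted p = 0.0289).

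Of 11 tested heme and iron genes, 2 rose, Hmox1 and Blvrb, and 4 fell. Alas1, the first enzyme of heme synthesis, fell by 1.20 ± 0.20 (adjusted p = 0.00314), Slc40a1, the iron exporter ferroportin, 2.82-fold (0.00517), Hmox2, the constitutive heme oxygenase, by 0.96 ± 0.23 (0.0138), and Fech, the last enzyme of heme synthesis, by 0.79 ± 0.21 (0.0189). Hmox1 and Hmox2 thus went in opposite directions. With median centring 3 of this list were higher and 3 lower, and with single arrays left out 0 to 2 were higher and 2 to 4 lower. Of 8 tested NADPH oxidase and other oxidant source genes, Ncf4, a phagocyte oxidase subunit, rose by 1.81 ± 0.49 (adjusted p = 0.0209) and Maob, monoamine oxidase B, fell by 1.79 ± 0.25 (0.00174). Maob also fell with tamoxifen in NTG mice, by 1.55 ± 0.25 (adjusted p = 0.0151), and so did Cd163, the haptoglobin-hemoglobin scavenger receptor of macrophages, by 1.68 ± 0.34 (0.0253).

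Other genes of these lists stood out against NTG tamoxifen or in the difference between the tamoxifen effects. Txndc17, a thioredoxin-like protein, was higher in TG tamoxifen than in NTG tamoxifen by 1.74 ± 0.28 (adjusted p = 0.000873), and Gpx8 by 1.75 ± 0.19 (0.000225). Lower there were Oplah at -3.56 ± 0.44 (0.000327), Sesn3 at -1.41 ± 0.38 (0.0128), Glrx3 at -0.97 ± 0.23 (0.00721) and Xdh, xanthine dehydrogenase, at -0.72 ± 0.25 (0.0392). The effect of tamoxifen differed between genotypes for Gpx8, by 1.28 ± 0.26 (adjusted p = 0.0142), Oplah, by -2.55 ± 0.63 (0.0239), Sod3, by -1.79 ± 0.54 (0.0465), and Hmox2, by -1.11 ± 0.33 (0.0454). Gpx8 and Oplah had thus moved in the same directions in each of these comparisons and in TG tamoxifen against TG vehicle, which share the TG tamoxifen arrays.

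Macrophages also express Hmox1 and Ncf4, so their markers were counted. Of 12 macrophage markers 11 were tested and 4 rose in TG tamoxifen against TG vehicle, beside 10.4% of all tested genes. They were Ptprc by 1.40, Aif1 by 1.34, Mrc1 by 0.69 and Lgals3 by 1.92. The summed intensity of the list ranged from 116678 to 172114 on TG tamoxifen arrays and from 62600 to 118919 on TG vehicle arrays. NTG arrays had 52755 to 59290 with tamoxifen and 62719 to 70625 with vehicle. None of the 11 was called as lower, and 7 did not pass. In TG tamoxifen against NTG tamoxifen 6 of the 11 were called, all higher, beside 19.0% of all tested genes called higher. The difference between the tamoxifen effects called 3, all higher, beside 7.51%. Tamoxifen in NTG mice called 1 macrophage marker, as lower, beside 4.37% of all tested genes called. Endothelial markers went the other way, with 4 of 7 lower, beside 14.4% of all tested genes. Their sums were 35003 to 38125 in TG tamoxifen and 45635 to 53732 in TG vehicle. In NTG mice the endothelial sums were also lower with tamoxifen, at 36388 to 43757 against 52732 to 55832 with vehicle. Neither tamoxifen in NTG mice nor the difference between the tamoxifen effects called any of the 7. Of the 8 cardiomyocyte markers 2 were lower in TG tamoxifen against TG vehicle, beside 14.4% of all tested genes. They were Mybpc3 by 1.03 (adjusted p = 0.00210) and Ryr2 by 0.90 (0.0452). The cardiomyocyte sums were 1812490 to 1965140 in TG tamoxifen and 1976380 to 2041400 in TG vehicle. Of the red cell markers 2 of 8 lay above the filter and neither was called. The part of cell composition in these results was not tested, and in whole ventricle a smaller number of cells of a type and less RNA per cell cannot be told apart.

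Across the 12 arrays, correlations are given as descriptions, since the arrays fall into groups and share their normalization. Txnrd1 went with Hmox1 (Pearson's r = 0.89) and against Gsta4 (r = -0.93), and after removing group means these were 0.78 and -0.63. The array labelled NTG tamoxifen 1 was kept in these values, and its group spread most. The standard deviation of Txnrd1 was 0.79 in NTG tamoxifen and 0.07 to 0.38 in the other groups. Correlations without that array were not computed. The tested genes most like Txnrd1 over the 12 arrays were Mllt3 (r = 0.987), Sptlc2 (0.978) and Suco (0.977). Those most like Cat were Pgk1 (0.985), Sptssa (0.977) and Ufm1 (0.975).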

How the data were processed

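The authors deposited linear intensities, with 1 value for a probe set on an array. All arrays had a trimmed mean (2% cut from either end) of 2500.02, so they had been scaled alike. Labelling followed the Affymetrix expression protocol, per the labels, and the software that summarised the probes is not stated in these sources. RNA was extracted by the RNAzol protocol, per the labels. Detection calls were not used.

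Array medians spanned 0.35 on the log2 scale, so log2(intensity + 16) was quantile-normalized. Of 45101 probe sets, 64 were controls, 34945 had 1 symbol in the platform annotation, 932 several and 9160 none, and only those with 1 symbol were named. Symbols were checked against RefSeq, which changed 0 and held no entry for 204. The brightest probe set of a gene was kept, and 11165 of 18193 genes were tested, those at or above the 50th percentile over probe sets (9.42, or an intensity near 670.3). All 9 measured members passed this filter, as did 18 of their 19 probe sets.

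The test was limma's (version 3.58.1, R 4.3.3, lmFit and eBayes, two-sided). A single fit held 4 group means over 12 arrays, with 8 residual and 3.55 prior degrees of freedom, Benjamini-Hochberg adjustment and a threshold of 0.05. A second fit took all 45037 probe sets that are not controls. The gene fit was tested on simulated data. The alternatives were other scalings, pseudocounts, filters, probe set rules, groupings, variance models, the replicate block, the beta-actin ratio as a covariate, and each array left out. Each mouse was a separate animal per the series' description, so the spread is between mice.

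The members and the gene lists were chosen with earlier results of these data known, so counts over them are descriptions. Members and Hspa5, Esr1, Nfe2l2, Keap1 and Nqo1 were always named. From each pathway list up to 4 other called genes by smallest adjusted p were named in TG tamoxifen against TG vehicle and up to 2 in each other comparison. For Txnrd1 and Cat the 3 tested genes with the highest r were named. Other list genes (Prdx4, Sesn2, Sod1, Sod2, Blvrb, Mafk, Taldo1, Ephx1 and the cell markers) were named after their values were seen. Replicate numbers were not treated as pairing the samples. The correlation of deviations from group means was -0.0872 to 0.0910 in 18 pairs with the same number. It was -0.0956 to 0.144 in pairs with other numbers. No pairing is visible in these values, but with 3 arrays per group they cannot settle whether equal numbers link mice.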

Additional observations from a re-analysis of the deposited data

Results flagged for a closer look

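The effect of tamoxifen differed between TG and NTG mice for 5 genes by limma's test of the difference itself. The difference of effects was 1.65 for Txnrd1 (1.89 in TG and 0.25 in NTG), 1.16 for Txn1 (0.85 and -0.31), 1.21 for Gclc (1.26 and 0.06), -0.75 for Prdx2 (-0.81 and -0.06) and -2.09 for Gsta4 (-2.02 and 0.07), all on the log2 scale. Without the array labelled NTG tamoxifen 1 the values were 2.10, 1.33, 1.20, -0.78 and -2.45, and all 5 passed. With each of the 12 arrays left out in turn, Txn1 and Gsta4 passed 12 times, Gclc 5, Prdx2 3 and Txnrd1 2 times, the highest adjusted p being 0.0885 for Txnrd1, 0.0689 for Gclc and 0.0999 for Prdx2. With the mean of probe sets the Txn1 value was 0.02 (adjusted p = 0.973). Txnrd1, Gclc (0.83, adjusted p = 0.0732) and Prdx2 also lost the call under that rule, and only Gsta4, which has a single probe set, kept it.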

How the results depend on the processing

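Of 1156 pairs of a member's difference and an alternative, 1017 kept direction and side of the threshold, 96 lost the call, 6 gained it and 37 changed sign, of which 1 had passed the threshold. The number of the 9 genes called in TG tamoxifen against TG vehicle was 6 to 8 with single arrays left out, 4 without TG vehicle 3 and TG tamoxifen 1, 0 with TG vehicle 3 regrouped as tamoxifen and 0 with the beta-actin covariate. In TG tamoxifen against NTG tamoxifen it was 6 to 7 and, regrouped, 2. In TG vehicle against NTG vehicle it was 0 to 1 and, with array weights, 1. For the difference between the tamoxifen effects it was 2 to 7 with single arrays left out, 1 with the mean of probe sets, and 0 with no filter, regrouped, without both conflicting arrays or with the covariate. Under the replicate block the counts were 8, 0, 0, 7 and 4, the last losing Prdx2. No filter adds genes to the adjustment, and the causes of the other changes were not tested.

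Sign changes with the mean of probe sets were Txn1 in TG tamoxifen against NTG tamoxifen (-0.20) and in NTG (0.0680), and Txnrd1 (0.83) and Prdx2 (-0.24) between vehicle groups. With median centring in NTG they were Gclc (-0.11), Gsta4 (-0.13), Cat (-0.15) and Srxn1 (-0.0153), and with array weights Cat (-0.29). With the covariate they were Gclc (-0.42) and Gsta4 (-0.35) in NTG, Hmox1 (-0.65), Prdx2 (-0.15) and Gsta4 (-0.74) between vehicle groups, and Gclm between tamoxifen groups (-0.19). That Gclm value was -0.52 with TG vehicle 3 regrouped and -0.13 without both conflicting arrays, and Gsta4 between vehicle groups was -0.0241 under both. With single arrays left out, ranges that crossed 0 were, in NTG, Txnrd1 -0.21 to 0.51, Hmox1 -1.01 to 0.93, Prdx2 -0.15 to 0.0249, Gsta4 -0.22 to 0.43 and Cat -0.52 to 0.33. Between vehicle groups they were Txnrd1 -0.0573 to 0.0331, Prdx2 -0.0323 to 0.14 and Gsta4 -0.0241 to 0.45, between tamoxifen groups Gclm -0.27 to 0.45, and for the difference of effects Srxn1 -0.00935 to 0.27. With 3 arrays per group, a difference as small as that of Srxn1 cannot be settled.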
